A study of Mus musculus with 8 samples.

Results

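The 10 genes described here encode proteins that restrain the ERK MAP kinase pathway: the dual-specificity phosphatases DUSP1, DUSP2, DUSP4, DUSP5, DUSP6 and DUSP10, the Sprouty proteins SPRY1 and SPRY2, and the related SPRED1 and SPRED2. The genes are written Dusp1, Spry2 and so on below. Members were taken by gene name from the non-normalized expression table, which held 8 of the 10 among 18138 names. Dusp5 and Spry1 were not analysed here. Of the 8 members, 6 passed the filter on dim genes (detection p under 0.05 on 4 or more arrays), among 7167 genes in all, while Spry2 and Spred2 were detected on no array.

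All samples were OT-1 cells, mouse CD8+ T cells with a transgenic receptor for the ovalbumin peptide SIINFEKL presented by H2-Kb. They had been cultured for 24 h at a ratio of 5 to 1 with LPS-matured, peptide-loaded stimulator cells and then sorted as CD8+CD69+. In the cB group (4 arrays) the stimulators were CD40-activated B cells, and in the DC group (4 arrays) they were dendritic cells grown in culture. The labels do not say whether replicates came from separate mice or cultures, so p-values reflect the variation among these 8 arrays, part or all of it possibly technical. Unstimulated T cells were not analysed here, so each difference sets one stimulator against the other and gives no direction from the resting state.

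When a T cell receptor binds its antigen, Ras activates the kinases RAF, MEK and ERK in turn, and ERK enters the nucleus and induces a wave of early genes. DUSP phosphatases, many of them products of that wave, remove the activating phosphates from ERK, p38 or JNK. Sprouty and SPRED proteins act higher up, at the level of Ras and RAF. Transcripts of such feedback inhibitors are therefore widely read as a trace of earlier signalling, although several are also induced by other routes.

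The inhibitors went in both directions, with most higher after contact with dendritic cells. Of the 6 tested members, 5 were higher in DC and 1 was higher in cB, each past the threshold of limma with Benjamini-Hochberg adjustment over all genes (adjusted p below 0.05). Fitted differences toward DC were 10.4-fold for Dusp1, 3.04-fold for Dusp2, 3.14-fold for Dusp6, 2.20-fold for Dusp10 and 1.45-fold for Spred1. Dusp1 had the widest gap of the members under each alternative tried, while the order of the others depended on the background correction. Dusp4 alone was higher in cB, by 1.56-fold. The 2 groups differed over the whole table, with 61.4% of all tested genes called, 29.8% higher in cB and 31.6% higher in DC, so a call by itself sets no member apart. The normalized values of the groups did not overlap for any of the 6, which was also so for 56.8% of all tested genes, and for 29.1% with DC higher. The median log2 difference (cB minus DC) was -1.37 over the 6 tested members and -0.0265 over all tested genes. These member counts and this median include Dusp6, which was detected on no cB array and was tested through its DC values. In RNA of a cell population, more expressing cells and more RNA per cell cannot be told apart.

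**Figure D1:**
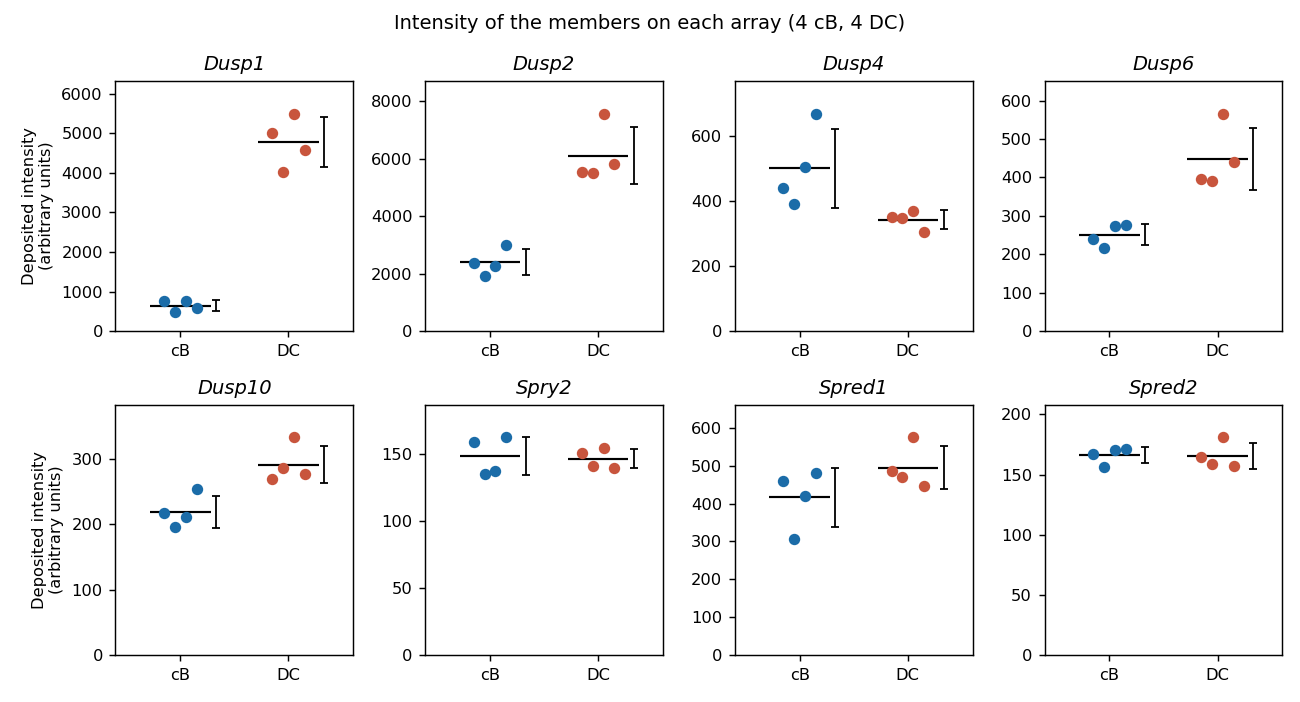
Deposited intensity (arbitrary units, linear axes from 0) of the 8 measured members on the 4 cB and 4 DC arrays. Points are arrays, horizontal lines are means and vertical bars are SD. Dusp1, Dusp2, Dusp6 and Dusp10 are higher on every DC array, Dusp4 is higher on every cB array, Spred1 overlaps before normalization, and Spry2 and Spred2 lie at background in both groups.

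Dusp1 encodes MKP-1, a nuclear phosphatase that acts on p38, JNK and ERK and is induced within minutes by growth factors and stress. Its intensity on the cB arrays was 762, 479.9, 767 and 583 in replicates 1 to 4. On the DC arrays it was 5008, 4015, 5495 and 4583. The groups did not overlap, and the lowest DC array was far above the highest cB array. After background correction and quantile normalization the log2 difference was -3.38 ± 0.14 (SE, n = 4 per group; limma adjusted p = 5.2e-08), with a 95% interval of 8.37-fold to 13.0-fold for DC over cB. Among the 7167 tested genes 34 (0.474%) had a difference further toward DC. The same sign held in each alternative tried, with log2 differences from -3.69 with the background taken from all genes to -3.04 in a fit to the authors' gene-level values.

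Dusp2 encodes PAC-1, a nuclear phosphatase first found in activated T cells. Its intensity was 2372, 1931, 2281 and 3007 on the cB arrays. In DC it was 5532, 5510.0, 7571 and 5831. Every DC array was above every cB array, and cB replicate 4 was the highest of its group. The log2 difference was -1.61 ± 0.12 (SE, n = 4 per group; limma adjusted p = 3e-06), and 360 tested genes (5.02%) lay further toward DC.

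The sequences before the starts of Dusp1 and Dusp2, both higher in DC, are shown. Theirs were the only promoters, among the 7 members with a RefSeq promoter entry, that held any of the 6 motifs searched. Dusp4, a nuclear phosphatase gene that was higher in cB, had no such entry and was not searched. Each sequence shown is the 250 bases before the annotated start, from RefSeq on build GRCm38.p6, written 5′ to 3′ on the gene's strand. Capitals mark a cyclic AMP response element (CRE, TGACGTCA) or an E-box (CACGTG). Dusp1 lies on the minus strand at chr17:26508473-26508722 and Dusp2 on the plus strand at chr2:127335909-127336158.
Dusp1: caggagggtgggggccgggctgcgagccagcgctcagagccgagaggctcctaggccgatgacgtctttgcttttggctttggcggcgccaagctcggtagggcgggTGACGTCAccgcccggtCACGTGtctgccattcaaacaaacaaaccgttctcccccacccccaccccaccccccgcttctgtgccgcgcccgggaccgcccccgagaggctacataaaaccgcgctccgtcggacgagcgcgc
Dusp2: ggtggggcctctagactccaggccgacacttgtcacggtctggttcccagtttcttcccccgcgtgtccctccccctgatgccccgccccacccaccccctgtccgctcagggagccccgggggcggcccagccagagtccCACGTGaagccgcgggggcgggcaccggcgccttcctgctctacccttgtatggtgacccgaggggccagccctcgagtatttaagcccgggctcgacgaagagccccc
In Dusp1 the CRE began 143 bases and the E-box 126 bases before the start, and in Dusp2 the E-box began 109 bases before it. Over all 32851 RefSeq promoters of the same length, 1.55% held the CRE and 6.02% the E-box. The other motifs, sought on both strands, were AP-1 (TGANTCA, in 6.75% of all promoters), an ETS site (CCGGAAGT, 2.88%), an EGR site (GCGTGGGCG, 0.536%) and the CArG box of serum response factor (1.47%). None of these letters occurred in the windows of Dusp1, Dusp2, Dusp6, Dusp10, Spry2, Spred1 or Spred2. A match is a description of the sequence and no evidence of binding.

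Dusp6 encodes MKP-3, a cytoplasmic phosphatase specific for ERK. Its intensity was 240.0, 217, 273 and 275 on the cB arrays. The DC values were 397, 389, 566 and 440.2, without overlap between the groups. The gene was detected on all 4 DC arrays and on none of the cB arrays, where its detection p lay between 0.0687 and 0.283. It was tested through its DC values, so a difference in this direction was the one the filter let through. The log2 difference was -1.65 ± 0.12 (SE, n = 4 per group; limma adjusted p = 1.8e-06), a fitted 3.14-fold toward DC with a 95% interval from 2.61-fold to 3.79-fold. The missing detection does not place Dusp6 at background in cB cells. On each cB array its intensity exceeded the highest of any undetected gene whose detection p was a whole step of the negative controls, which lay between 172.5 and 195.4, and the detection p of Dusp6 itself was off these steps. The size depended on the background: -0.92 without correction, -0.91 in a fit to the authors' gene-level values and -0.50 with the background from all genes, each past the threshold.

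Dusp10 encodes MKP-5, which prefers p38 and JNK over ERK. Its intensity was 217, 196, 211 and 254 on the cB arrays. In DC it was 270.1, 287, 333 and 277. The groups were close, with cB replicate 4 just under DC replicate 1, and did not overlap. The log2 difference was -1.14 ± 0.16 (SE, n = 4 per group; limma adjusted p = 0.00016). The call held and the size did not: without background correction the difference was -0.49, in a fit to the authors' gene-level values -0.48 and with the background from all genes -0.18.

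Dusp4 encodes MKP-2, a nuclear phosphatase closely related to Dusp1 that acts on ERK and JNK, and it moved against the others. Its intensity was 439, 391, 503 and 669 on the cB arrays. The DC values were 351, 347, 371 and 304. Each cB array exceeded each DC array, and cB replicate 4 was the brightest while DC replicate 4 was the dimmest. The log2 difference was 0.64 ± 0.18 (SE, n = 4 per group; limma adjusted p = 0.010), with a 95% interval from 0.24 to 1.04, and 19.8% of tested genes lay further toward cB. It was 0.42 without background correction, 0.42 in a fit to the authors' gene-level values and 0.30 with the background from all genes, past the threshold in each.

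Spred1 encodes a membrane-associated inhibitor that brings the Ras GTPase-activating protein neurofibromin to Ras. Its intensity was 461, 305, 419 and 480.3 on the cB arrays. In DC it was 488, 471, 575 and 446. As deposited, the groups overlapped, because cB replicate 4 exceeded 2 DC arrays. After quantile normalization they did not, with log2 values up to 8.25 in cB and from 8.37 in DC. The log2 difference was -0.54 ± 0.14 (SE, n = 4 per group; limma adjusted p = 0.0073), and 24.8% of tested genes lay further toward DC. With the background from all genes it was -0.27, still past the threshold.

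Spry2, a Sprouty protein that inhibits receptor-driven activation of Ras and RAF, and Spred2, which acts like Spred1, were undetected on all 8 arrays. Spry2 intensity was between 134.9 and 162 on cB arrays and between 139 and 154 on DC arrays, and Spred2 intensity between 156 and 171 and between 158 and 181. The mean background of the arrays lay between 147.9 and 167.1, so no level and no difference of either transcript was measurable here.

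**Figure D2:**
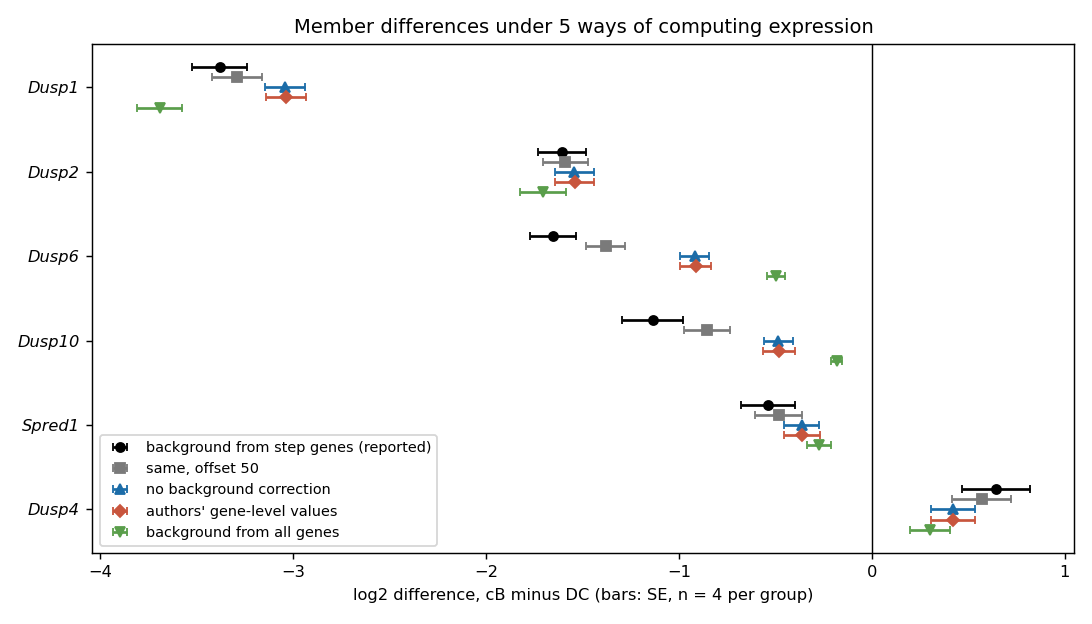
log2 difference (cB minus DC) of the 6 tested members under 5 ways of computing expression, with bars for SE (n = 4 per group). All points keep their side of 0, Dusp1 stays between -3.69 and -3.04, and Dusp6 ranges from -1.65 to -0.50 with the background setting.

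By distance between profiles over the 8 arrays, each centred on its own mean, the genes nearest to Dusp1 were BC034076 (log2 difference -3.68), Ccdc184 (-3.40) and the thromboxane receptor gene Tbxa2r (-3.42), at distances of 0.515, 0.522 and 0.542 log2 units. The nearest to Dusp4 were the mitochondrial nuclease gene Exog (0.66), Ccdc124 (0.71) and a predicted transcript named LOC100045430 (0.63), at distances of 0.166, 0.207 and 0.311. Profiles over 8 arrays in 2 groups are set mainly by the group difference and its size.

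Among the other phosphatase, Sprouty and SPRED genes, 5 of the 17 in the table were tested, of which 3 were higher in DC, none was higher in cB and 2 did not pass, with a median log2 difference of -0.43. Dusp16, a JNK and p38 phosphatase, had intensities of 395, 284, 356 and 412 on the cB arrays. The DC values were 882, 785, 1007 and 773, all above the cB range (log2 difference -1.86 ± 0.14, SE, n = 4 per group; limma adjusted p = 2.4e-06). Dusp11, an RNA phosphatase, differed by -1.11 ± 0.10. Dusp23 (-0.38 ± 0.14) overlapped between groups and lost its call in a fit to the authors' gene-level values (-0.14, adjusted p = 0.12) and in 6 other alternatives. Dusp7, a cytoplasmic ERK phosphatase related to Dusp6, had a difference of 0.13 with a 95% interval from -0.42 to 0.68 and did not pass. Spry4 was detected on 1 array, a DC array, and Spry3 on none.

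A further list joined transcripts known to be induced through ERK with transcription factors of that response, such as Srf, Elk3 and Ets1. Of its 16 tested genes, 10 were higher in DC, 1 was higher in cB and 5 did not pass, with a median log2 difference of -1.01. They included the AP-1 subunit genes Jun (-2.54 ± 0.15) and Junb (-1.55 ± 0.12), the transcription factor gene Ets2 (-1.63 ± 0.12) and Egr1 (-1.92 ± 0.17), the last an immediate early gene. Fosb, also among the 10, was detected on all DC and no cB arrays and so was tested through its DC values. Egr1 intensity was 1211, 887, 1758 and 1559 on the cB arrays. On the DC arrays it was 3425, 3028, 6300 and 4304, with no overlap. Etv4, an ETS factor gene, was the one higher in cB, but it was detected on all cB and no DC arrays and so was tested through its cB values. The fitted fold of cB over DC was 1.81 with the background correction used here, and no lower bound is given. The fitted log2 difference of 0.85 was 0.32 without correction and 0.077 with the background from all genes, past the threshold in each. Egr2, a relative of Egr1, had a difference of 0.17 ± 0.21 and did not pass. Myc, Nr4a1 and Ier2 were detected on no array. Nr4a1 and Ier2 lay near background, but Myc intensity was 387 to 456 on cB arrays and 289 to 316 on DC arrays, above background in both groups, and it was not tested.

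**Figure D3:**
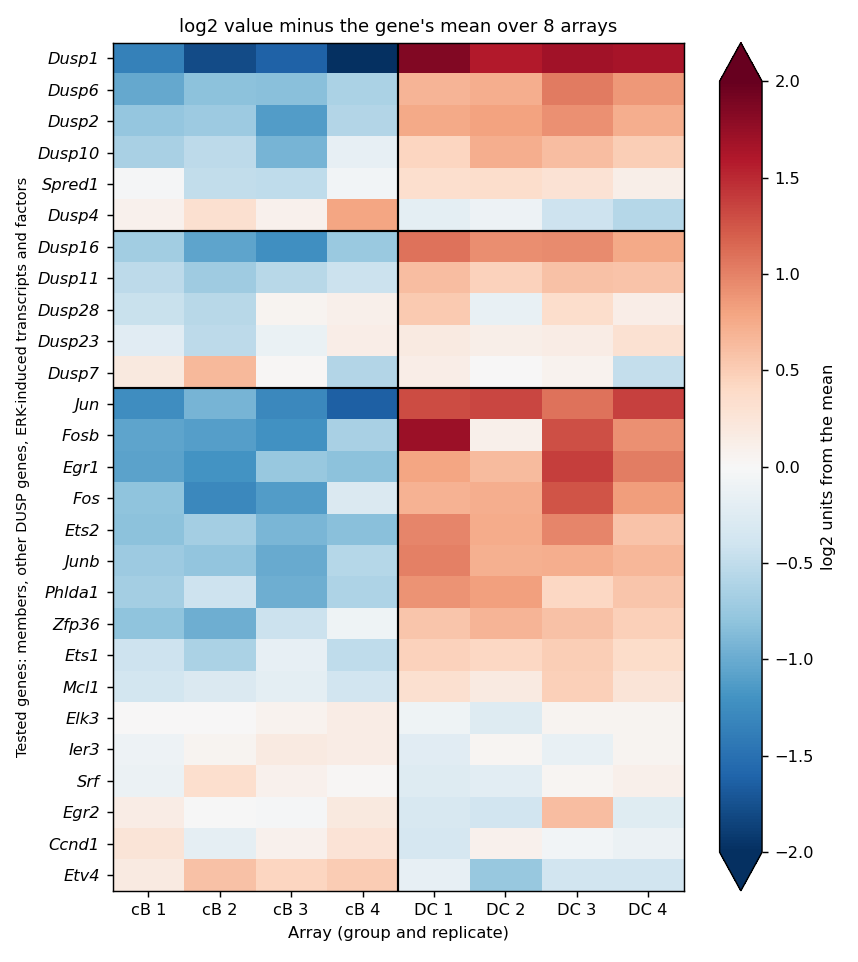
log2 value of each tested gene on each array minus the gene's mean over the 8 arrays, for the 6 members (top), 5 other DUSP genes (middle) and 16 ERK-induced transcripts and their transcription factors (bottom), with colour saturating at 2 log2 units from the mean. Dusp1 and Jun change most between the cB (left) and DC (right) columns, and Dusp4 and Etv4 run the opposite way.

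The kinases of the cascade itself showed no common direction. Of 13 tested genes from Ras activation to ERK, 3 were higher in cB, 3 were higher in DC and 7 did not pass, with a median log2 difference of -0.12. Those higher in DC included the RAF kinase gene Araf (-0.78 ± 0.15). Mapk3, which encodes ERK1 (0.84 ± 0.18), Nras (0.35 ± 0.10) and Hras (0.39 ± 0.12) were higher in cB. The size for Mapk3 was 0.28 in a fit to the authors' gene-level values.

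Of 13 tested brakes that act above ERK, 6 were higher in DC, 1 was higher in cB and 6 did not pass, with a median of -0.39. Dgka, a diacylglycerol kinase that removes the lipid needed by the Ras activator RasGRP1, had intensities of 1448, 1192, 1821 and 1732 on the cB arrays. On the DC arrays they were 5434, 5715, 7778 and 6330.4, and the log2 difference was -2.33 ± 0.09 (SE, n = 4 per group; limma adjusted p = 3.5e-08). The phosphatase gene Ptpn22 (-1.31 ± 0.13) and the ubiquitin ligase genes Cblb (-1.04 ± 0.13) and Peli1 (-0.89 ± 0.17) were also higher in DC. Rasal3, a Ras GTPase-activating protein gene, was the one higher in cB (0.39 ± 0.14), with overlapping groups and no call under median scaling, without the detection filter or with a replicate block. Rasgrp1 itself differed by -0.020 ± 0.11 and did not pass.

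In the p38 and JNK arms, which Dusp1, Dusp10 and Dusp16 also restrain, 10 of 16 tested genes were higher in DC, 3 were higher in cB and 3 did not pass, with a median of -0.64. Those higher in DC included Mapkapk3, a kinase below p38 (-1.61 ± 0.14), Gadd45b, an activator of the p38 and JNK arms (-2.38 ± 0.21), and the p38 activator gene Map2k3 (-0.76 ± 0.09). Mapk11, which encodes p38 beta, was higher in cB by 1.46 ± 0.16. Its difference was 0.52 in a fit to the authors' gene-level values and 0.16 with the background from all genes. Mapk11 was detected on only 2 arrays of each group. The others higher in cB were Mapk14, which encodes p38 alpha (0.58 ± 0.105), and Gadd45g, a relative of Gadd45b (0.44 ± 0.105). Both were detected on every array, and with the background from all genes their differences were 0.68 and 0.50.

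**Figure D4:**
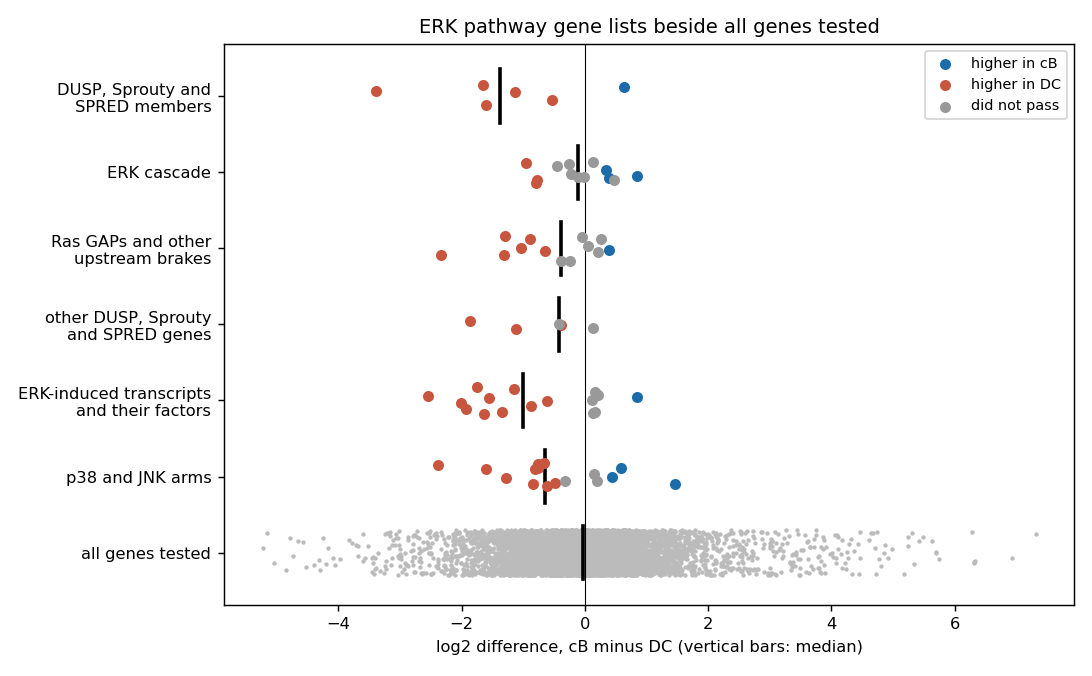
log2 difference (cB minus DC) of each tested gene in 6 lists and of all 7167 tested genes, with vertical bars at the medians. The members and the list of ERK-induced transcripts and their transcription factors have medians of -1.37 and -1.01, while the ERK cascade (-0.12) lies near the median of all genes (-0.0265). In these lists Dusp6 and Fosb were tested through their DC values and Etv4 through its cB values.

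Mean intensity per array lay between 602 and 824, and 38.3% to 40.8% of genes were detected. Cd69, by which the cells of both groups were sorted, was itself higher in DC (-2.15 ± 0.13). The part of the sort in this difference was not tested. Markers of T cells were bright in both groups, with summed intensities over 12 genes of 50233 to 88495 in cB and 57126 to 81088 in DC. Cd8a was detected on no array and Cd8b1 on all. Of 17 dendritic and myeloid markers 9 were undetected on all arrays, Itgax, Itgam, Csf1r and Flt3 among them. Their summed intensity was 2670 to 3175 in cB and 3122 to 3372 in DC, where background alone would sum to 2683. Of the 5 that were tested, 3 were higher in DC, with Cd14, detected in DC alone, at a fitted 5.27-fold, and 1 in cB. Of 13 B cell markers 4 were undetected on all arrays, and their summed intensity was 2650 to 3036 in cB and 2636 to 3037 in DC, with a background sum of 2051. Of the 5 tested, 3 were higher in cB, with Cd79b, detected in cB alone, at a fitted 5.49-fold, and 1 in DC. The part of these other cells in the differences of the members was not tested.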

How the data were processed

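Per the labels, RNA of 8 sorted OT-1 samples (4 cB, 4 DC) was hybridised to Illumina mouse-ref8 beadchips. The deposited table holds an average bead intensity on a linear scale and a detection p-value for each gene name and array, per the file headers. A second table deposited by the authors gives log2 expression after normalization for 7266 genes, 7258 of which matched by name. Its normalization method, and how probes of a gene were combined, are not given in the sources used here.

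In limma 3.58.1 (R 4.3.3), background mean and SD per array came from detection p-values of the 13929 genes lying on steps of 1 part in 798 on all arrays (tolerance 0.001 of a step), signals were normexp-corrected (offset 16), arrays were quantile normalized and log2 was taken. The background setting governs the size of dim differences. Genes detected (p below 0.05) on at least 4 arrays were tested, cB minus DC, with lmFit and eBayes and Benjamini-Hochberg adjustment over all 7167; with an array left out, detection on 3 arrays was required. The fit was also run on simulated data in which few genes differed. It called 4 of 50 genes with a true log2 difference of 0.5 and 37 of 48 with a difference of 1. Of 8486 unchanged genes it called 8. Small differences were thus mostly missed there, and median estimates were 0.899 to 0.915 of the true size. Values called a fit to the authors' gene-level values are computed here from their table. Alternatives covered background, offset, normalization, filter, variance model, left-out arrays and a replicate block.

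Members and lists were chosen with earlier results of these data known. Named were all members, up to 4 called genes of each list by lowest adjusted p, the largest in the less common direction, and the 3 nearest profiles of the most strongly called member each way. Others, such as Egr2, Nras, Hras, Rasgrp1, Dusp7, Spry3, Spry4, Mapk14, Gadd45g, Myc, Nr4a1 and Ier2, were chosen after their values were seen. Gene names are those of the array; 14309 matched a RefSeq symbol and 2687 a synonym (GRCm38.p6). Some genes that this rule names are not reported here.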

Additional observations from a re-analysis of the deposited data

Results flagged for a closer look

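Over 142 groups of 4 arrays, a pair for each of the measured members and tested list genes, 3 held an array whose gap to its nearest neighbour was above Dixon's critical value for 4 samples, as a share of the group's range. Chance alone flags about 1 in 20 such groups. No member was among them. Ptpn22 on cB replicate 2 was the lowest of its group at 8.67 on the log2 scale, with the next array at 9.06. Egr2 on DC replicate 3 was the highest at 9.06, with the next at 8.22; Egr1 was also highest on that array. Map2k7 on cB replicate 4 was the highest at 7.01, with the next at 6.66.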

How the results depend on the processing

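Each tested member kept its direction and its call under all alternatives in which it was tested; Dusp6 is not tested where detection on all 8 arrays is required. With any 1 array left out, the log2 differences ranged from -3.49 to -3.27 for Dusp1, -1.67 to -1.49 for Dusp2, -1.71 to -1.57 for Dusp6, -1.27 to -1.01 for Dusp10, -0.63 to -0.46 for Spred1 and 0.48 to 0.73 for Dusp4, with a highest adjusted p of 0.032, for Dusp4. The members called stayed at 5 and 1, and the genes called in all ranged from 4204 to 4432. An alternative added after the data were seen left out all genes off the detection steps, which leaves 3 members tested, 3 higher in DC and 0 in cB.

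The replicate numbers may or may not mark shared batches. Deviations from the group means correlated between same-numbered arrays at 0.112, 0.128, 0.175 and 0.082. Each array correlated best with its own number, which is a hint of pairing. The main fit left the replicate number out. With the replicate block 4427 genes were called beside 4398 without it, and the members' adjusted p reached 0.025; the brakes above ERK then had 0 calls toward cB in place of 1.

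That count of 1, Rasal3, was 2 without background correction, in the authors' gene-level values, with the background from all genes, with detection on all 8 arrays and with the trended prior; it was 0 under median scaling and without the detection filter, and 0 to 1 with an array left out. Their 6 calls toward DC became 3 with detection on all 8 arrays. For the list of ERK-induced transcripts and factors the 1 call toward cB was 2 in the authors' values and without the filter, 0 with detection on all arrays, and 1 to 2 with an array left out. The cascade had 5 calls toward DC in the authors' values, and the other DUSP genes 2 to 5 with an array left out, 5 of them without cB replicate 4. Uncalled genes near 0 changed sign with an array left out: Rasgrp1 (-0.077 to 0.055), Dok1 (-0.039 to 0.14), Dok2 (-0.11 to 0.030) and Dusp7 (-0.061 to 0.35). The cause was not tested, except that fewer genes are tested under the stricter filter. Signal over background limits the sizes of Dusp6, Dusp10, Dusp4 and Spred1 and gives none for Spry2 and Spred2.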
